A study of Mus musculus with 9 samples.

Results

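The keratin-associated protein genes of the hair shaft were examined together with Tchh, which encodes trichohyalin, and Padi3, a peptidylarginine deiminase. Members were taken by name: every gene whose symbol begins with Krtap, plus Tchh and Padi3. This gave 54 of the 23361 genes in the table, of which 52 were Krtap genes. RNA had been sequenced from skin cells of mice, taken by cell sorting. The labels call them melanocyte stem cells, a reserve kept in the hair follicle that renews its pigment cells. The 9 libraries formed 3 groups of 3, named UVB, Active and Quiescent. All mice carried the genotype labelled TBPT, whose alleles are not spelled out in the labels, and all were 10 weeks old. The treatment label gave depilation by a chemical agent or UVB, the medium-wave ultraviolet band, for every sample alike, so it does not state which group received which. The groups are therefore named here as the labels name them. The labels do not say that libraries of a group came from separate animals, and p-values measure only the spread between these libraries.

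The hair shaft is built by keratinocytes of the growing follicle, which fill with hair keratin filaments and then with keratin-associated proteins, a matrix that binds the filaments together through disulfide bonds. These matrix proteins fall into families rich in cysteine (high and ultrahigh sulfur) and families rich in glycine and tyrosine. Trichohyalin is a structural protein of the inner root sheath, the sleeve that moulds the growing shaft, and of the medulla. Deiminases convert its arginines to citrulline and transglutaminases crosslink it. None of these genes is a marker of pigment cells.

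Members of the family differ in what they encode, and the start of the coding sequence of the best counted gene of the glycine-tyrosine class and of the ultrahigh sulfur class, both defined by composition just after, is shown for that reason. The first 120 coding bases are given 5′ to 3′ in the sense of the gene, from the GENCODE annotation of build GRCm38. In Krtap8-1 (chr16:89487788-89487907, minus strand), capitals mark codons for glycine or tyrosine, which were 19 of the first 40. In Krtap17-1 (chr11:99993820-99993939, minus strand), capitals mark codons for cysteine, which were 18 of the first 40.
Krtap8-1: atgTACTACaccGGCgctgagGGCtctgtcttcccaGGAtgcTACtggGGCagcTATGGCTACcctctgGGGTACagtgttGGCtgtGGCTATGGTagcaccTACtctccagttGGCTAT
Krtap17-1: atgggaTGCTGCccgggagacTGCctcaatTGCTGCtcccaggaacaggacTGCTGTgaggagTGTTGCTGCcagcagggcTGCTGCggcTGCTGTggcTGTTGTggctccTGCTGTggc
Over the whole protein, Krtap8-1 had 47.5% glycine plus tyrosine and 4.92% cysteine among 61 residues. Krtap17-1 had 35.8% cysteine and 34.9% glycine plus tyrosine among 109 residues. Neither lay at the end of its class, since Krtap6-1 had 69.2% glycine plus tyrosine and Krtap5-5 had 41.5% cysteine. Tchh had neither feature: of its 1599 residues 51.6% were glutamate or arginine, and arginine is the residue that deiminases act on.

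By composition, 15 Krtap genes were glycine-tyrosine (glycine plus tyrosine at least 35% of residues and above cysteine), 17 were ultrahigh sulfur (cysteine at least 30%), 14 were high sulfur (cysteine from 10% up to that limit) and 6 fell outside these classes. The rule goes by letters alone. It leaves Krtap7-1, at 29.9% glycine plus tyrosine, outside the glycine-tyrosine class, and it places Krtap5-2 and Krtap5-3 inside it although more than 30% of their residues were cysteine. The genes lie in 4 clusters in build GRCm38: 22 on chromosome 16, 22 on chromosome 11, 5 on chromosome 7 and 3 on chromosome 10. Tchh lies on chromosome 3 and Padi3 on chromosome 4.

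Upstream sequences are shown because most of the Krtap promoters shared a short element at a like distance from the start. A promoter, from 250 bases before to 50 after the start, was found in the RefSeq promoter table of build GRCm38.p6 for 49 of the 54 members. The 6 letters TATAAA, the core of a TATA box, began 20 to 40 bases before the start on the gene's strand in 28 of the 47 Krtap promoters (59.6%), against 600 of all 27025 promoters in the table (2.22%). Neither Tchh nor Padi3 held the motif in that window. The 100 bases before the start are printed 5′ to 3′ on the gene's strand, with TATAAA in that window in capitals, for the 6 Krtap genes with the most fragments that had a promoter in the table and for Tchh. They are Krtap8-1 (chr16:89487953-89488052, minus strand), Krtap11-1 (chr16:89571184-89571283, minus strand), Krtap22-2 (chr16:89010760-89010859, minus strand), Krtap15 (chr16:88828909-88829008, plus strand), Krtap14 (chr16:88826146-88826245, minus strand), Krtap13-1 (chr16:88728762-88728861, plus strand) and Tchh (chr3:93442230-93442329, plus strand).
Krtap8-1: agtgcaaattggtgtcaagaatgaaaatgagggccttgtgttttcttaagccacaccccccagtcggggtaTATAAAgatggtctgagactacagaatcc
Krtap11-1: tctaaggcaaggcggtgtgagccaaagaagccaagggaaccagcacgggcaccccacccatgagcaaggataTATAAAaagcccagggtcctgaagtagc
Krtap22-2: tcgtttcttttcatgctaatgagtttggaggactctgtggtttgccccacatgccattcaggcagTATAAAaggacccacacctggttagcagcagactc
Krtap15: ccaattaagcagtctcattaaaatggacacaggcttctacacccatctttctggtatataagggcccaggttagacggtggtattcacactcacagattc
Krtap14: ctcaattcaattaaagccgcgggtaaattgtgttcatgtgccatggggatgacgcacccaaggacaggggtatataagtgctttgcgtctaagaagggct
Krtap13-1: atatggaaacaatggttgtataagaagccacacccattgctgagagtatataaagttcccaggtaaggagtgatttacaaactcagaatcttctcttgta
Tchh: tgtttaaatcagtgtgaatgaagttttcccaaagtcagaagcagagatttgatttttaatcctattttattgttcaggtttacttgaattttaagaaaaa
The motif began 29 bases before the start in Krtap8-1, 28 in Krtap11-1 and 35 in Krtap22-2. Krtap15, Krtap14 and Krtap13-1 did not hold it in the window, and in Krtap13-1 the same letters lay further upstream. Searched over the full 250 bases on both strands, TATAAA was in 38 of the 49 member promoters (77.6%) against 13% of all promoters, and CTTTGA, the core letters bound by LEF and TCF factors, was in 13 (26.5%) against 14%. CACGTG, an E-box, was in 3 (6.12%) against 6.05% of all promoters. Related genes share promoter sequence by descent, so these are counts of letters over copies and not of independent sites.

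Library totals ran from 21045070 to 35131778 estimated fragments. Of all genes 15078 were abundant enough to test. Markers of other cells differed widely between the groups. All 9 dermal fibroblast genes examined, among them Col1a1 and Col3a1, were tested, and their summed level was 22206 to 34746 CPM in UVB, 4849 to 6159 CPM in Active and 336304 to 454692 CPM in Quiescent. The 10 melanocyte genes examined, among them Tyr and Sox10, summed to 860 to 1044 CPM in UVB, 7789 to 12668 CPM in Active and 74.5 to 122 CPM in Quiescent. Not every gene followed the sum: Sox10 alone had 312 to 581 CPM in UVB, Mlana overlapped between UVB and Quiescent, and Mitf had 20 to 38.1 CPM in UVB and 47.3 to 64 CPM in Quiescent. Xist, the transcript of the inactive X chromosome, averaged 919 ± 161 CPM in UVB, 0.286 ± 0.129 CPM in Active and 0.315 ± 0.134 CPM in Quiescent, while Eif2s3y on the Y chromosome had 0 fragments in UVB and 48.7 ± 0.687 CPM in Active and 57.9 ± 2.69 CPM in Quiescent (SD, n = 3 each). Sex-linked transcripts and the UVB label therefore cannot be told apart in any difference of UVB from the other groups. CPM here are fragments per 1e+06 fragments of the library total after scaling by TMM factors, which were 1.163 to 1.225 in UVB and Active and 0.660 to 0.748 in Quiescent.

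Nearly all Krtap RNA was found in the Active libraries. A fragment was assigned to 12 Krtap genes in UVB, to 35 in Active and to 8 in Quiescent, and 16 had none in any library. Of the 52 genes, 22 had fragments in Active alone, 1 in UVB alone and 0 in Quiescent alone. The one seen in UVB alone was Krtap10-10, with 1 fragment, picked out for this after its values were seen. Of the 36 Krtap genes with a fragment, 20 had 10 or more in all, so the others were seen by few fragments. The shares of all genes seen in 1 group alone were not computed, and these counts of genes are not read further. By library, Krtap genes with a fragment numbered 5, 1 and 10 in UVB replicates 1 to 3, 28, 32 and 16 in Active, and 2, 7 and 3 in Quiescent. A gene without a fragment can still have been present at up to 3 fragments in a library, a limit that covers counting error only.

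**Figure D1:**
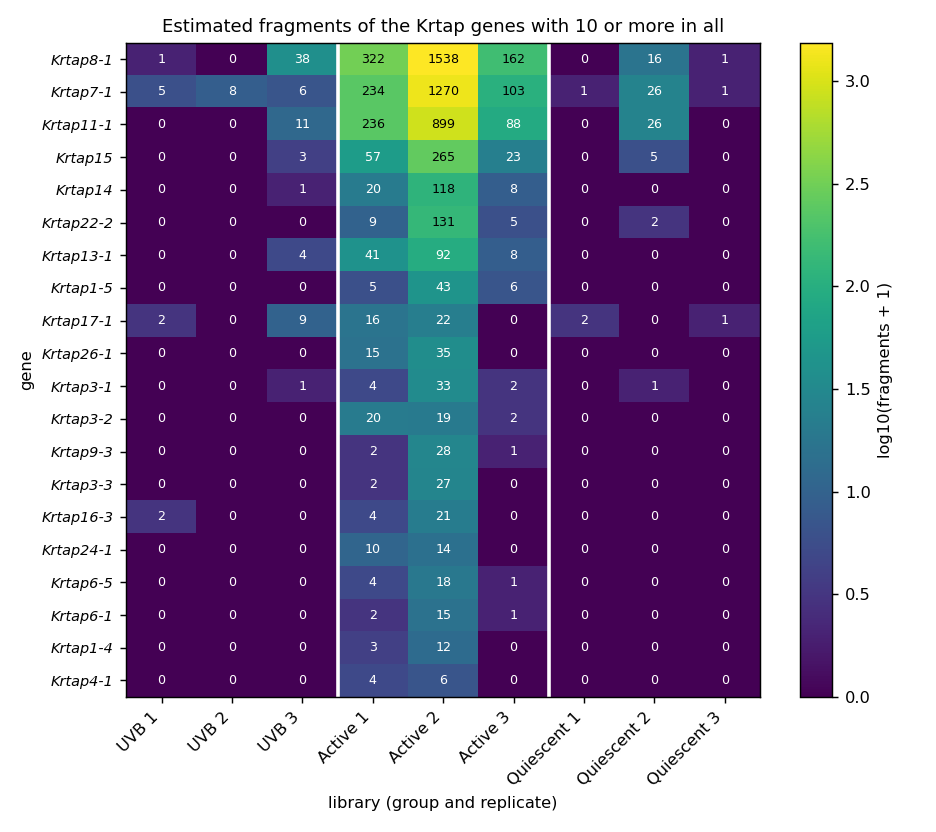
Estimated fragments (numbers in the cells, colour as log10 of fragments plus 1) of the 20 Krtap genes with 10 or more fragments in all, in rows, for the 9 libraries, in columns by group and replicate. The 3 Active columns carry almost all of the signal, Active replicate 2 most of all, and UVB replicate 3 and Quiescent replicate 2 hold most of what is left.

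Because close copies can share fragments, the family was also summed. The 52 Krtap genes together had 11, 8 and 75 fragments in UVB replicates 1 to 3, 1022, 4642 and 415 in Active, and 3, 77 and 3 in Quiescent. On the CPM scale the sum was 0.347, 0.274 and 2.53 in UVB, 31.9, 168 and 17.0 in Active, and 0.117, 4.59 and 0.177 in Quiescent. Every Active library was above every library of the other groups, and within each group 1 library stood well above the other two: UVB replicate 3, Active replicate 2 and Quiescent replicate 2. UVB and Quiescent overlapped.

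The group means of the Krtap sum were 1.05 ± 1.28 CPM in UVB, 72.4 ± 83.4 CPM in Active and 1.63 ± 2.56 CPM in Quiescent (SD, n = 3 each). The Active mean was 44.5-fold the Quiescent mean, and the SD was larger than the mean in every group. With Tchh and Padi3 added, the sum was 3.18, 1.58 and 10.3 CPM in UVB, 112, 348 and 46.7 CPM in Active, and 2.23, 14.4 and 3.01 CPM in Quiescent. Its log2 ratio was 4.69 for Active over Quiescent, -5.08 for UVB over Active and -0.38 for UVB over Quiescent. No test was made of the sums. The first ratio was 3.60 without Active replicate 2 and 6.01 without Quiescent replicate 2. The second was -3.98 without Active replicate 2 and -6.15 without UVB replicate 3. The third changed sign without Quiescent replicate 2, at 0.93. In bulk samples fewer cells of a type and less RNA per cell cannot be told apart, and this holds for every level given here.

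**Figure D2:**
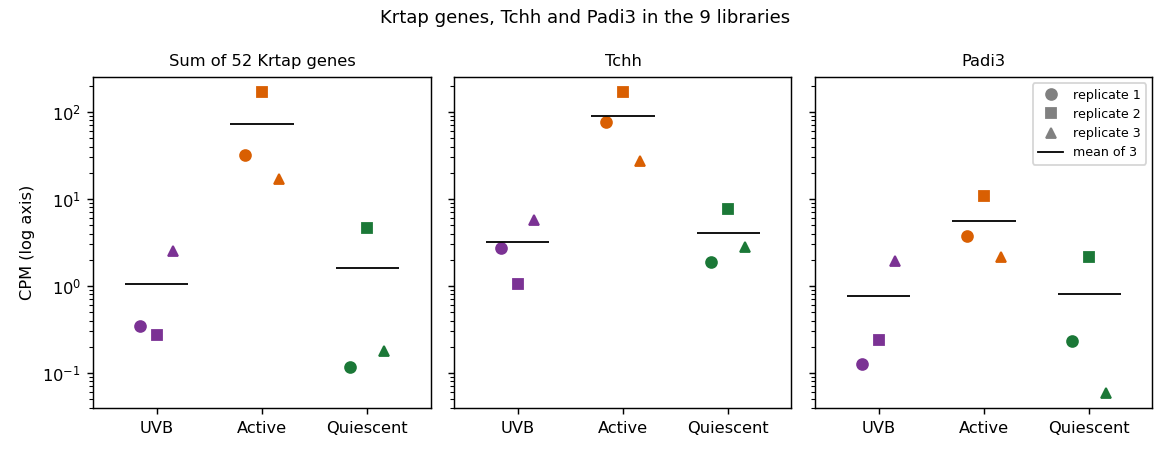
CPM on a log axis for the sum of the 52 Krtap genes, for Tchh and for Padi3 (panels) in the UVB, Active and Quiescent libraries, with 1 point per library, its shape giving the replicate number, and a line at the mean of 3. Active lies highest in all 3 panels, with replicate 2 on top, and UVB replicate 3 and Quiescent replicate 2 are the highest of their groups.

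Set side by side per length, a few matrix genes carried the family. In Active, mean FPKM (the authors' fragments per kilobase of transcript and library size) was 61.5 ± 70.3 for Krtap8-1, 44.0 ± 53.7 for Krtap7-1, 17.3 ± 18.9 for Krtap11-1, 9.40 ± 14.0 for Krtap22-2 and 6.23 ± 7.29 for Krtap15, against 15.6 ± 12.4 for Tchh (SD, n = 3). Krtap8-1 was above Krtap7-1, and Krtap7-1 above Krtap11-1, in each of the 3 Active libraries. Krtap11-1 and Tchh changed places between libraries, with 8.74, 39.0 and 4.23 FPKM for Krtap11-1 and 13, 29.0 and 4.66 FPKM for Tchh in Active replicates 1 to 3. The means of neighbours in this order differed by less than the larger SD of the pair.

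The shares of the 3 best counted Krtap genes were steadier than the level of the family. Krtap8-1 took 31.5% (Wilson 95% interval 28.7 to 34.4), 33.1% (31.8 to 34.5) and 39.0% (34.5 to 43.8) of the Krtap fragments in Active replicates 1 to 3. Krtap7-1 took 22.9%, 27.4% and 24.8%, and Krtap11-1 took 23.1%, 19.4% and 21.2%. The chromosome 16 cluster held 93.7%, 95.5% and 96.4% of the Krtap fragments in these libraries. By contrast the 22 genes on chromosome 11 together had 1.99, 7.47 and 0.613 CPM, while 1 fragment in all of Active fell on chromosome 7 and none on chromosome 10. Intervals and limits cover counting error only, since amplified copies are not independent molecules.

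Little of the Krtap RNA came from the genes richest in cysteine. The ultrahigh sulfur class, the most numerous, had 2.45%, 0.819% and 0.241% of the Krtap fragments in Active replicates 1 to 3, the lowest share of the classes in each library, and a summed level of 0.779, 1.38 and 0.0409 CPM. Glycine-tyrosine genes had 33.8%, 37.5% and 41.0% of the fragments, high sulfur genes 28.4%, 23.7% and 24.6%, and the 6 genes outside the classes, which include Krtap7-1, 35.4%, 37.9% and 34.2%. Each of these shares came mostly from a single gene. Krtap8-1 had 322 of 345, 1538 of 1742 and 162 of 170 glycine-tyrosine fragments in Active replicates 1 to 3. Krtap11-1 had 236 of 290, 899 of 1102 and 88 of 102 high sulfur fragments. Krtap7-1 had 234 of 362, 1270 of 1760 and 103 of 142 fragments outside the classes. Most of the ultrahigh sulfur fragments in replicates 1 and 2 belonged to Krtap17-1. The 5 genes with the highest mean FPKM had from 4% to 12.0% cysteine. Copies can hide part of such a signal: 15 Krtap genes shared no stretch of 50 bases with any other gene, and 15 shared more than 20% of theirs, so low counts of single copies are uncertain. Krtap8-1, Krtap7-1, Krtap11-1, Krtap22-2 and Krtap17-1 shared none, and Krtap15 shared 14.6%.

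**Figure D3:**
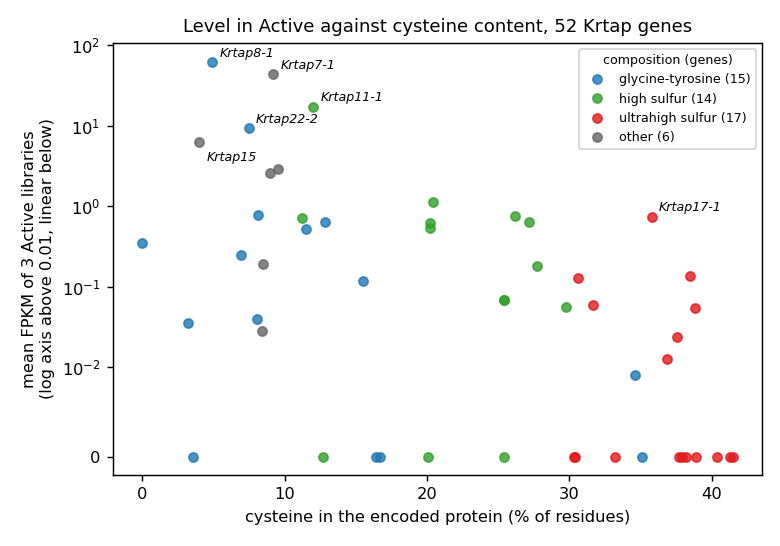
Mean FPKM of the 3 Active libraries (log axis above 0.01, linear below) against the percentage of cysteine in the encoded protein, with 1 point for each of the 52 Krtap genes, coloured by composition class. The 5 highest genes, led by Krtap8-1 at 61.5 FPKM, lie between 4% and 12.0% cysteine, and the ultrahigh sulfur genes lie below 1 FPKM.

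Active was compared with Quiescent to see what sets the cells labelled active apart from those labelled quiescent. Of the 54 members 5 were higher in Active in edgeR's quasi-likelihood test, at an adjusted p (Benjamini-Hochberg over all 15078 genes tested) under 0.05, and 0 were lower. Of all genes tested 29.1% were higher, and 58.3% differed in either direction. Only 6 members passed the filter on low counts, Tchh, Padi3 and 4 Krtap genes, while 38 could be tested with no filter. For these 4 Krtap genes and for Padi3 Active was the one group in which every library carried a fair number of fragments. A gene that got through the filter was therefore likely to differ, and the count is not read further. For the same reason the adjusted p-values of the 4 Krtap genes and Padi3, here and in UVB against Active, are not read as support for a difference. The count was 11 with no filter, 3 without Active replicate 2, 9 without Quiescent replicate 2, 10 without Active replicate 3 and 8 without any 1 of the UVB libraries. The Active libraries lay wholly above the Quiescent ones for 17 of the 54 members (31.5%), 15 of them Krtap genes, against 33.5% of all genes tested. They lay wholly below for 0 members, against 32.7%. The 54 include 48 members that did not pass the filter, so these shares cover unlike sets.

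Krtap8-1, a small glycine-tyrosine protein, had 10.0, 55.8 and 6.62 CPM in Active replicates 1 to 3 and 0, 0.954 and 0.0591 CPM in Quiescent. Every Active library was above every Quiescent one. The log2 fold change was 6.27 ± 1.68 (SE, adjusted p = 0.011). It was 4.70 (adjusted p = 0.055) without Active replicate 2, 9.73 without Quiescent replicate 2 and 5.57 without Quiescent replicate 1. Krtap7-1, its neighbour on chromosome 16, had 7.29, 46.1 and 4.21 CPM in Active and 0.0391, 1.55 and 0.0591 CPM in Quiescent, again without overlap, a log2 fold change of 5.20 ± 1.31 (adjusted p = 0.0080). It was 3.44 (adjusted p = 0.038) without Active replicate 2, 8.53 without Quiescent replicate 2 and 4.57 without Quiescent replicate 1.

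Krtap11-1, classed as high sulfur, had 7.36, 32.6 and 3.60 CPM in Active and 0, 1.55 and 0 CPM in Quiescent. The groups did not overlap, and all 26 Quiescent fragments came from replicate 2. Active exceeded Quiescent by a log2 fold change of 4.89 ± 1.59 (adjusted p = 0.026). This call was lost in DESeq2 (adjusted p = 0.138) and without Active replicate 2 (3.46, adjusted p = 0.127), Quiescent replicate 1 (4.22, 0.061) or Quiescent replicate 3 (4.34, 0.057), and the value was 11.62 without Quiescent replicate 2, which left that group at 0. Krtap15, one of the Pmg genes described from mouse skin and mammary gland, had 1.78, 9.61 and 0.940 CPM in Active and 0, 0.298 and 0 CPM in Quiescent. Active was higher in every library here too. Its log2 fold change was 5.46 ± 1.44 (adjusted p = 0.010), and 3.86 (adjusted p = 0.045) without Active replicate 2, 9.80 without Quiescent replicate 2 and 4.75 without Quiescent replicate 1.

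Tchh was the best counted member. It had 2445, 4657 and 675 fragments in Active replicates 1 to 3, or 76.2, 169 and 27.6 CPM, and 48, 128 and 47 fragments in Quiescent, or 1.88, 7.63 and 2.78 CPM. The lowest Active library was above the highest Quiescent library, and replicate 2 was again the highest of both groups. Tchh rose 22.5-fold in Active, by 4.49 ± 0.88 (SE) on the log2 scale with adjusted p = 0.0021, and 2.99% of all genes tested had a log2 fold change as high or higher. It was 3.68 (adjusted p = 0.0072) without Active replicate 2 and 5.31 (adjusted p = 0.0029) without Quiescent replicate 2.

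Padi3, which acts on trichohyalin, was the least abundant of the 3 kinds of member. It had 3.71, 10.8 and 2.17 CPM in Active and 0.235, 2.15 and 0.0591 CPM in Quiescent. The groups did not overlap, but Active replicate 3 and Quiescent replicate 2 all but met. The log2 fold change of 2.80 ± 1.29 did not pass the test (adjusted p = 0.091). It passed in DESeq2 (2.78, adjusted p = 0.036), in limma on log2(FPKM + 1) (1.08, 0.032), in limma on log2(FPKM + 0.1) (2.62, 0.031), with library size as the only scaling (3.51, 0.040) and without Quiescent replicate 2 (5.10, 0.020), and it was 1.89 (adjusted p = 0.284) without Active replicate 2.

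The 6 best counted Krtap genes below the filter were tested only with the filter removed. Krtap14, the other Pmg gene, had 20, 118 and 8 fragments in Active replicates 1 to 3 and 0 in Quiescent. Krtap22-2, of the glycine-tyrosine class, had 9, 131 and 5 in Active and 0, 2 and 0 in Quiescent. Krtap13-1 had 41, 92 and 8 in Active and 0 in Quiescent. All 3 were above Quiescent in every Active library. Against an upper limit of 3 fragments over the Quiescent group, Krtap14 was at least 34.3-fold higher in Active and Krtap13-1 at least 33.1-fold higher. Krtap1-5, a high sulfur gene, had 5, 43 and 6 fragments in Active and 0 in Quiescent, at least 12.7-fold higher. Krtap17-1 had 16, 22 and 0 in Active and 2, 0 and 1 in Quiescent. Krtap26-1 had 15, 35 and 0 in Active and 0 in Quiescent. These last 2 overlapped with Quiescent, since Active replicate 3 had no fragment of either. With no filter, edgeR's adjusted p in Active against Quiescent was 0.0069 for Krtap14, 0.0081 for Krtap13-1, 0.034 for Krtap22-2 and 0.030 for Krtap1-5, and Krtap17-1 and Krtap26-1 did not pass. The genes were picked by totals that came mostly from Active, so these p-values and fold limits are not read as support for a difference.

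Within Active, most of the better counted members showed the same order of libraries. Of the 25 Krtap genes with 5 or more fragments in Active, 24 were highest in Active replicate 2, 23 were lowest in replicate 3, and 22 showed the order replicate 2, then 1, then 3. The exception for the highest library was Krtap31-1, with 3, 2 and 0 fragments, named after its values were seen. Tchh and Padi3 had the same order. The 25 genes were chosen by their Active fragments, and replicate 2 held 4642 of the 6079 Krtap fragments of Active. Being highest there was thus partly built into the choice, and close copies can share fragments. The share of all genes with this order was not computed, so the counts are not read further. Replicate numbers are used here only as names, and libraries of the Active group differed in this module by more than counting error. For instance the Krtap sum was 168 CPM in replicate 2 and 17.0 CPM in replicate 3.

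UVB was then compared with Active. Of the 54 members 5 were lower in UVB by the same test, and 0 were higher. Of all genes tested 9.19% were lower, 14.8% higher and 24% either. The 5 were Tchh and the 4 tested Krtap genes, to which the remark on the filter applies. UVB libraries lay wholly below Active for 17 members (31.5%), 15 of them Krtap genes, against 21.7% of all genes tested. They lay wholly above for 0, against 25%. Here too the members include those that did not pass the filter, so the shares cover unlike sets. The number called was 11 with no filter, 1 without UVB replicate 1, 2 without Active replicate 2, 3 without Active replicate 1, 3 without UVB replicate 2, 9 without Active replicate 3 and 8 without any 1 of the Quiescent libraries.

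Tchh had 86, 31 and 172 fragments in UVB replicates 1 to 3, or 2.71, 1.06 and 5.81 CPM, against the 27.6 to 169 CPM of Active. No library overlapped, with replicate 3 the highest of UVB. Its log2 fold change was -4.83 ± 0.88 (adjusted p = 0.0071), or 28.4-fold lower, and 0.212% of all genes tested had a value as low or lower. It was -4.03 (adjusted p = 0.026) without Active replicate 2 and -5.58 (adjusted p = 0.012) without UVB replicate 3.

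Krtap8-1 had 0.0315, 0 and 1.28 CPM in UVB, against 6.62 to 55.8 CPM in Active. All but 1 of its 39 UVB fragments were in replicate 3. On the log2 scale UVB differed from Active by -5.78 ± 1.57 (adjusted p = 0.030). It was -4.25 (0.136) without Active replicate 2, -6.15 (0.055) without Active replicate 1, -5.22 (0.090) without UVB replicate 1, -5.21 (0.062) without UVB replicate 2 and -10.15 (0.018) without UVB replicate 3. Krtap7-1 had 0.158, 0.274 and 0.203 CPM in UVB, against 4.21 to 46.1 CPM in Active. It was the one Krtap gene with a fragment in all 3 UVB libraries, and its UVB values were close together. A log2 fold change of -6.48 ± 1.39 (adjusted p = 0.013) resulted, with -4.74 (0.049) without Active replicate 2 and -6.30 (0.053) without UVB replicate 1.

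Krtap11-1 had 0, 0 and 0.371 CPM in UVB, against 3.60 to 32.6 CPM in Active. Its log2 fold change was -6.84 ± 1.78 (adjusted p = 0.026), but the adjusted p was 0.055 in DESeq2, 0.053 without Active replicate 1, 0.102 without Active replicate 2, 0.084 without UVB replicate 1 and 0.063 without UVB replicate 2. Without UVB replicate 3 the value was -11.54. Krtap15 had 0, 0 and 0.101 CPM in UVB, against 0.940 to 9.61 CPM in Active. All of its 3 UVB fragments were in replicate 3. The log2 fold change was -6.76 ± 1.53 (adjusted p = 0.016), with -5.17 (0.060) without Active replicate 2, -6.20 (0.061) without UVB replicate 1 and -9.72 (0.037) without UVB replicate 3. Padi3 had 0.126, 0.240 and 1.92 CPM in UVB, against 2.17 to 10.8 CPM in Active, with a log2 fold change of -2.86 that did not pass (adjusted p = 0.134).

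Below the filter, Krtap22-2 and Krtap1-5 had 0 fragments in UVB and were at least 52-fold and 19.4-fold lower than in Active, by the same limit of 3 fragments over the group. Krtap26-1 also had 0 in UVB. Krtap14 had 1 UVB fragment and Krtap13-1 had 4, all in replicate 3. Krtap17-1 did otherwise, with 2, 0 and 9 fragments in UVB, which overlapped with its 16, 22 and 0 in Active. With no filter, edgeR's adjusted p in UVB against Active was 0.021 for Krtap14, 0.034 for Krtap13-1, 0.033 for Krtap22-2 and 0.049 for Krtap1-5, all lower in UVB. Having been picked by totals that came mostly from Active, these genes give no support for a difference here either.

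Between UVB and Quiescent no member was called: 0 of the 6 tested passed edgeR's test at an adjusted p under 0.05 and 0 had an unadjusted p under 0.05. DESeq2 and limma called 0 as well. Of all genes tested 49% passed in either direction, 25.8% higher and 23.2% lower. With these groups fitted alone only 1 member passed the filter, so most members were too sparse in both groups for this comparison. In no member did the libraries of the groups separate, and 16 members had no fragment in any library. The share of all genes tested whose UVB libraries lay wholly above Quiescent was 30.2%, and wholly below 27.4%. Tchh had 2.71, 1.06 and 5.81 CPM in UVB and 1.88, 7.63 and 2.78 CPM in Quiescent, with a log2 fold change of -0.33 ± 0.82 (adjusted p = 0.761). Padi3 had a log2 fold change of -0.06 ± 1.28 (adjusted p = 0.974). The SE of the 4 Krtap genes ran higher still, at 1.44 to 1.97, so a difference of several-fold in either direction lies within their error. With replicates 2 of Active and Quiescent both left out, Krtap7-1 was called higher in UVB (2.05 ± 0.69, adjusted p = 0.050).

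The partners of these proteins, the keratins, showed the same groups high and low, with 1 library that differed in detail. The list of hair shaft keratins, the filament proteins that the matrix surrounds, had 15 genes in the table. Of the 11 tested, 8 were higher in Active than in Quiescent and 0 lower, against 29.1% and 29.2% of all genes tested. Their median log2 fold change was 5.14, against 0.01 for all genes tested. Krt33b, for example, averaged 4.53 ± 5.94 CPM in Active and 0.0199 ± 0.0344 CPM in Quiescent (SD, n = 3 each; adjusted p = 0.0035). The number higher was 5 of 11 without Active replicate 2. The remark on the filter holds here too: Krt81 had 83, 433 and 34 fragments in Active, 0 in Quiescent and 0, 0 and 7 in UVB. A keratin that got through the filter by its Active libraries alone was likely to be higher there. These counts, the median and the adjusted p of Krt33b are therefore not read further. Against Active, UVB was lower in 7 of 11, where 9.19% of all genes tested were lower. It was lower in 1 without Active replicate 2 and in 1 without UVB replicate 1. Against Quiescent no shaft keratin differed in UVB, 0 at an unadjusted p under 0.05 and 0 in DESeq2 or limma.

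All 6 tested keratins of the inner root sheath, where trichohyalin is stored, were higher in Active than in Quiescent, against 29.1% of all genes tested. The remark on the filter applies here as well: Krt72 had 101, 260 and 33 fragments in Active, 0 in Quiescent and 0, 0 and 10 in UVB. Krt25 averaged 71.3 ± 48.9 CPM in Active and 0.821 ± 1.35 CPM in Quiescent (adjusted p = 0.024), and Krt72 averaged 4.64 ± 4.24 CPM in Active and had 0 fragments in Quiescent. Without Active replicate 2 the count was 2. Against Active, 2 of the 6 were lower in UVB, Krt72 and Krt27, 5 in limma on log2(FPKM + 1), 0 without Active replicate 2, 0 without UVB replicate 1 and 6 without UVB replicate 3. Against Quiescent no sheath keratin differed in UVB in edgeR's test, DESeq2 or limma, and 0 had an unadjusted p under 0.05.

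**Figure D4:**
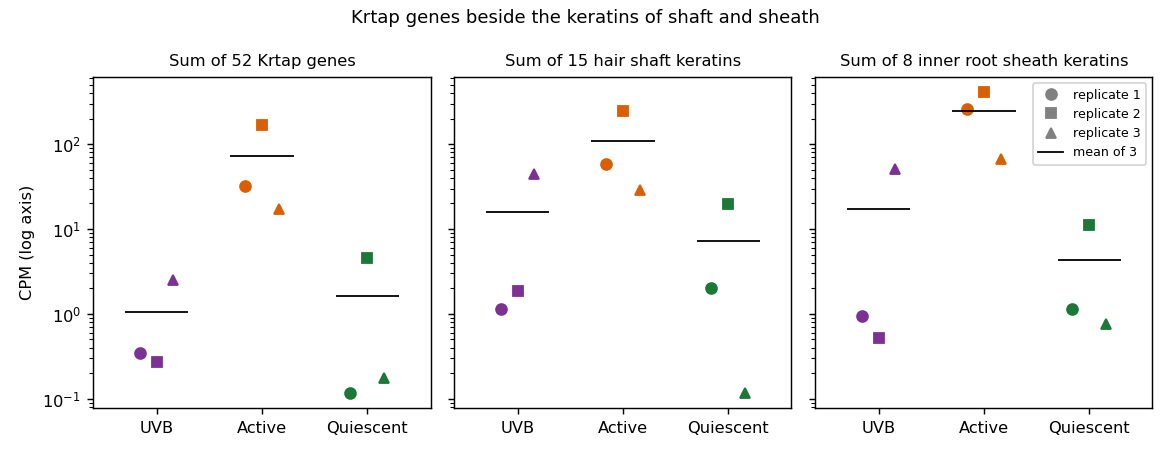
CPM on a log axis for the sums of the 52 Krtap genes, 15 hair shaft keratins and 8 inner root sheath keratins (panels) in the UVB, Active and Quiescent libraries, with 1 point per library, its shape giving the replicate number, and a line at the mean of 3. UVB replicate 3 lies above the lowest Active library for the shaft keratins, at 44.6 CPM with 34.2 CPM of it from Krt35, below the lowest Active library for the sheath keratins, at 50.7 CPM, and far below it for the Krtap genes, at 2.53 CPM.

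The library that differed was UVB replicate 3. Its hair shaft keratins summed to 44.6 CPM, against 1.13 and 1.85 CPM in UVB replicates 1 and 2, and lay within the Active range of 28.5 to 244 CPM. A single gene carried that sum. Krt35 had 34.2 CPM in UVB replicate 3, 76.7% of the shaft keratin fragments, against 6.83 to 43.8 CPM in Active. Krt35 also took 67.3% of the shaft keratin fragments in Quiescent replicate 1 and 64.8% in Quiescent replicate 2. A high share was thus not particular to UVB replicate 3. The share was 41.7% and 5.56% in UVB replicates 1 and 2, and 30.2%, 17.9% and 24% in Active replicates 1 to 3. Quiescent replicate 3 had 0 fragments of Krt35. The other 14 shaft keratins summed to 10.4 CPM in UVB replicate 3, below the 21.7 to 201 CPM of Active. Of the 15 shaft keratins, 9 were below every Active library there, 5 were within the Active range and 1 was above it. The gene above was Krt40, with 2 fragments there and 0, 1 and 0 in Active replicates 1 to 3. Krt39 and Krt84 had 0 fragments there and counted as within the range only because an Active library also had 0. Inner root sheath keratins summed to 50.7 CPM in UVB replicate 3, below the 66.4 to 410 CPM of Active, and to 0.945 and 0.514 CPM in the other UVB libraries. Its Krtap sum of 2.53 CPM stayed well below the lowest Active library, at 17.0 CPM.

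Of the fragments of Krtap genes and shaft keratins together, Krtap genes took 5.38% (Wilson 95% interval 4.31 to 6.69) in UVB replicate 3, 35.5% (33.8 to 37.3), 40.8% (39.9 to 41.7) and 37.3% (34.5 to 40.2) in Active replicates 1 to 3, and 19.1% (15.5 to 23.2) in Quiescent replicate 2. The sparser libraries had 23.4% (13.6 to 37.2) in UVB replicate 1, 12.9% (6.69 to 23.4) in UVB replicate 2 and 5.45% (1.87 to 14.9) in Quiescent replicate 1. Quiescent replicate 3 had 5 such fragments in all. Krt35 bore heavily on these shares. Without it the share was 19.6% (15.9 to 23.9) in UVB replicate 3, 44.1%, 45.6% and 43.9% in Active replicates 1 to 3, and 40.1% (33.4 to 47.2) in Quiescent replicate 2. It was then 34.4% and 13.6% in UVB replicates 1 and 2 and 15% in Quiescent replicate 1, so UVB replicate 3 was not the lowest. Tchh made up 10.3% (8.92 to 11.8) of Tchh and sheath keratin fragments in UVB replicate 3, against 22.5%, 29.2% and 29.4% in Active. In Quiescent replicate 2 that share was 40.5% (35.2 to 46.0). These are values of single libraries, chosen after they were seen, with no test.

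Other genes of hair formation gave mixed counts. Of the crosslinking and deiminating enzymes, 2 of 6 tested were higher in Active than in Quiescent, Padi2 with 7.74 ± 1.78 CPM in Active and 1.75 ± 0.147 CPM in Quiescent (adjusted p = 4.2e-04) and Tgm1 with 3.19 ± 1.19 CPM and 0.854 ± 0.433 CPM (adjusted p = 0.017). Tgm3, the transglutaminase known for crosslinking trichohyalin, was at 0.818 to 4.28 CPM in Active and 0 to 1.8 CPM in Quiescent, which overlap. Of 10 other shaft and sheath genes tested, 4 were higher in Active than in Quiescent and 2 were lower. Crym had the smallest adjusted p (1.6e-06), with 298 ± 22.1 CPM in Active and 0.368 ± 0.102 CPM in Quiescent. Unlike the Krtap genes it was high in UVB too, at 210 ± 76.3 CPM. S100a3, a calcium-binding protein of the hair cuticle, was at 32.1 ± 30.8 CPM in Active and 1.13 ± 1.40 CPM in Quiescent (adjusted p = 0.0033). Of 13 regulators of hair differentiation, 2 were higher, Lef1 and Cux1, and 3 were lower, among them Bmp4. With library size as the only scaling the lower genes numbered 0 in the one list and 1 in the other, and the median over all genes (log2) shifted to 0.76. Hoxc13, a transcription factor known to drive hair keratin and Krtap genes in the mouse, was at 0.616 to 3.95 CPM in UVB, 0.818 to 4.42 CPM in Active and 0.295 to 1.43 CPM in Quiescent. Those ranges overlap. Tgm3 and Hoxc13 were singled out for their known roles, outside the rule by which genes are named, and their values were known. Some genes of these lists were also called higher in UVB than in Quiescent. They were Padi2 of the enzymes, Crym of the shaft and sheath genes, and Lef1 and Cux1 of the regulators. In that comparison 0, 2 and 1 genes of the lists, in that order, were lower.

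Relatives of Tchh in the fused S100 gene cluster were sparse: 3 were tested and 1, Crnn, was higher in Active, with 1.26 ± 0.803 CPM and 0 fragments in Quiescent. In UVB, 2 of the 3 were lower than in Active, Crnn and Hrnr, and 0 without Active replicate 2. General markers of the epidermis were counted as well. All 12 were tested and 0 differed between Active and Quiescent in edgeR's test, 0 at an unadjusted p under 0.05 and 0 in DESeq2, while limma on log2(FPKM + 1) and library size as the only scaling each gave 2 higher in Active. In UVB, 2 of the 12 were lower than in Active, Ivl and Sbsn, with a median log2 fold change of -1.87, and 3 were lower than in Quiescent, Sbsn, Krt10 and Krt2, with a median of -1.62. The first count was 0 without Active replicate 1 or 2 or UVB replicate 2 or 3, and 1 without UVB replicate 1. The second was 0 without Quiescent replicate 1 or 2 or UVB replicate 2 or 3, 1 without any 1 of the Active libraries, 5 without Quiescent replicate 3 or UVB replicate 1, 5 in DESeq2, and 0 in limma or with library size alone. Their sum was 230 to 586 CPM in UVB, 665 to 1074 CPM in Active and 125 to 2022 CPM in Quiescent. The 10 genes of the bulge and outer root sheath had 3 higher in Active, among them Krt17 and Krt79, and 2 lower, Cd34 and Lgr5. The melanocyte list was higher in Active than in Quiescent in 10 of 10 genes and lower in UVB than in Active in 9 of 10 (median log2 fold change -3.60), and the fibroblast list was lower in Active than in Quiescent in 9 of 9. Whether the amount of follicle keratinocytes, melanocytes or fibroblasts in each sort had a part in the levels of the Krtap genes, Tchh and Padi3 was not tested.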

How the data were processed

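The 9 libraries (UVB, Active and Quiescent, 3 each) were directional and made after poly(A) selection, per the labels' protocols. The submitters' processing notes name cutadapt 1.8, TopHat2 2.0.13, Cuffdiff 2.2.1 and build mm10. Annotation and strand setting were not given in the sources used here. Per the file headers, the authors' deposited table holds estimated counts (fragments per gene before scaling) and FPKM values (fragments per kilobase of transcript and library size, after the authors' scaling). All 486 member values were whole to within 1e-06, and fragments of close copies may have been split between genes. Library totals were 21045070 to 35131778 fragments. Libraries of 1 group differed beyond sampling noise (chi-square per degree of freedom 25.6 to 120).

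For testing, edgeR 4.0.16 (R 4.3.3) was run on the rounded estimates: two-sided quasi-likelihood test, TMM factors, 1 fit of all 9 libraries, Benjamini-Hochberg over the 15078 genes that filterByExpr kept of 23361, threshold 0.05. The replicate coefficient of variation was 0.28. The fit was tested on simulated counts. Composition came from GENCODE coding sequences of build GRCm38, since the protein table meant for it was not used here, and promoters from RefSeq (GRCm38.p6). Alternatives were other scalings and filters, DESeq2 1.42.0, limma 3.58.1 on log2(FPKM + 1) and log2(FPKM + 0.1), the replicate number as a block, and leaving out each library.

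Named in full were Tchh, Padi3 and every Krtap gene past the filter, then the 6 best counted Krtap genes below it, and from each other list up to 4 genes with the smallest adjusted p. Members and lists were chosen with earlier results of these data known. A likeness of members to Tchh over the 9 libraries is not given, because the libraries fall into separate groups.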

Additional observations from a re-analysis of the deposited data

How the results depend on the processing

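Of 484 recomputed values, 411 kept their direction and call or, for counts, stayed within 1.5 times. Leaving out 1 library gave 7522 to 8938 genes called in Active against Quiescent, 5901 to 7492 in UVB against Quiescent and 1452 to 4226 in UVB against Active (the fewest without Active replicate 2). Members called ran from 3 to 10, 0 to 0 and 1 to 9. The members' sum (log2) ran from 3.60 to 6.01, -1.46 to 0.93 and -6.15 to -3.98. For Padi3 these ranges were 1.89 to 5.10, -2.09 to 2.23 and -4.90 to -1.95, and for Tchh 3.68 to 5.31, -1.08 to 0.48 and -5.58 to -4.03. Between UVB and Quiescent they were -6.64 to 4.78 for Krtap11-1, -4.26 to 3.04 for Krtap15, -1.91 to 2.05 for Krtap7-1 and -3.87 to 3.95 for Krtap8-1. With no filter 11 members were called in Active against Quiescent and 11 in UVB against Active. Padi3 in Active against Quiescent passed with library size alone (3.51), DESeq2 (2.78) and limma on log2(FPKM + 1) (1.08) or log2(FPKM + 0.1) (2.62). UVB against Quiescent changed sign with library size alone for Tchh (0.37), Padi3 (0.61) and the sum (0.30), where the median of all genes moved to 0.74, and in limma on log2(FPKM + 0.1) for Padi3 (0.03), Krtap7-1 (0.06) and Krtap8-1 (-0.04). Leaving out both replicates 2 of Active and Quiescent, chosen after seeing the data, gave Padi3 4.19 in Active against Quiescent, 1 member called in UVB against Quiescent, 3 members and 1768 genes called in UVB against Active, and signs turned in UVB against Quiescent for Tchh (0.47), Padi3 (2.24), Krtap11-1 (4.78), Krtap15 (3.04), Krtap7-1 (2.05) and the sum (0.93). The cause was not tested. Deviations of same-numbered libraries were weakly related (r from -0.17 to 0.23, against -0.21 to 0.26 for unlike numbers), so whether the numbers pair libraries is not settled. Between Active and Quiescent r was 0.13, 0.07 and 0.23 for equal numbers and -0.21 to 0.12 for unlike ones. With the replicate block 5 members were called in Active against Quiescent, 0 in UVB against Quiescent and 4 in UVB against Active. Krtap8-1 in the last comparison had -5.60 (adjusted p = 0.057), and Padi3 in UVB against Quiescent turned to 0.36. The filter on low counts removed 48 of the 52 Krtap genes.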
